A study of Mus musculus with 42 samples.

Results

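Described here are 31 genes that make, take in, store and export cholesterol, out of 55487 gene identifiers counted in mouse leukaemia cells. They were picked by symbol as genes of the sterol pathway. The set holds 20 synthesis enzymes, 4 regulators of the sterol response (Srebf2, Scap, Insig1 and Insig2), 4 genes of uptake and movement within the cell (Mylip, Npc1, Npc2 and Stard4), the storage enzyme Soat1 and the exporters Abca1 and Abcg1. All 31 had a row in both count tables.

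The cells were an MLL-AF9 acute myeloid leukaemia (AML) line, a mouse leukaemia that carries the MLL-AF9 fusion oncogene and is marked with GFP and luciferase. All mice received cells grown ex vivo from 1 terminally ill mouse, so the 21 recipients share 1 leukaemia. Recipients were male, wild type by label and 8 to 10 weeks old, and were injected without preconditioning, which leaves the host's own blood formation in place. Their food held a standard amino acid (AA) mix or lacked the branched-chain amino acids (BCAA), which are leucine, isoleucine and valine. Once leukaemia burden was high they received 5+3 chemotherapy or the PBS vehicle. The 5+3 course was 100 mg/kg of cytarabine daily for 5 days with 3 mg/kg of doxorubicin daily on the first 3 days. Viable GFP+ cells were sorted from bone marrow at the point of greatest response. The groups were AA vehicle (5 mice), AA 5+3 (4 mice), BCAA-free vehicle (5 mice) and BCAA-free 5+3 (7 mice). Each lysate gave a Smart-seq2 mRNA library and a ribosome footprint library, which counts the RNA fragments that ribosomes cover during translation.

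Animal cells build cholesterol from acetyl-CoA by way of mevalonate, farnesyl diphosphate, squalene and lanosterol. When sterols in the endoplasmic reticulum run low, Scap escorts the precursor encoded by Srebf2 to the Golgi, where it is cut to a transcription factor that switches on most synthesis enzymes, and the Insig proteins hold it back when sterols are plentiful. When oxysterols build up, the liver X receptors (LXR) switch on the exporters Abca1 and Abcg1 and the ubiquitin ligase Mylip, which marks lipoprotein receptors for breakdown.

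The DNA upstream of these genes shows what they share beside function. RefSeq promoter windows (build GRCm38.p6, the 250 bases before the transcript start) were found for 25 of the 31 genes. CCAAT, the box bound by NF-Y, a known partner of the sterol response factor, was present on either strand in 22 of those 25 windows and in 16 of 17 windows of synthesis enzymes. Over all genes in the table, 37.5% held it. The sterol regulatory element core TCACNCCAC, searched on both strands, was present in 1 of the 25, against 1.22% of all genes. The LXR direct repeat was found in 0 of the 25, against 0.0851% of all genes. Only exact matches were counted, so elements that differ by any fixed letter or lie outside the window were not seen. Matches are letters in a window and not measured binding. The windows of 5 enzymes and of Srebf2 are shown as examples of members with lower footprints on the BCAA-free diet under 5+3 whose windows end at the annotated gene start, which other members meet too. Capitals mark CCAAT or its complement ATTGG and, in Hmgcs1, the sterol element TCACCCCAC that begins 137 bases before the start. No motif overlapped another in these 6 windows. They lie at chr13:119690101-119690350, + strand (Hmgcs1), chr13:8885356-8885605, + strand (Idi1), chr8:122443423-122443672, - strand (Mvd), chr5:4104698-4104947, - strand (Cyp51), chr8:64733579-64733828, - strand (Msmo1) and chr15:82147019-82147268, + strand (Srebf2), each read 5′ to 3′ on the gene's strand.
Hmgcs1: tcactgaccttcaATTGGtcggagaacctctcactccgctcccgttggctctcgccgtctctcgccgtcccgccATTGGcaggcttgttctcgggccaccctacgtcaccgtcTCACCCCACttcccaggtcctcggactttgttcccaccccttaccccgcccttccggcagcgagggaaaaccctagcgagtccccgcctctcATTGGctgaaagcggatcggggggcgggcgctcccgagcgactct
Idi1: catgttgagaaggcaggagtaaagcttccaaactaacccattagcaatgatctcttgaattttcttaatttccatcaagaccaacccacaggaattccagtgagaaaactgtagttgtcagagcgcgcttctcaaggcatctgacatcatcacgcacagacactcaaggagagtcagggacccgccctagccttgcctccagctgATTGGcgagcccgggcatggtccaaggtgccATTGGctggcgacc
Mvd: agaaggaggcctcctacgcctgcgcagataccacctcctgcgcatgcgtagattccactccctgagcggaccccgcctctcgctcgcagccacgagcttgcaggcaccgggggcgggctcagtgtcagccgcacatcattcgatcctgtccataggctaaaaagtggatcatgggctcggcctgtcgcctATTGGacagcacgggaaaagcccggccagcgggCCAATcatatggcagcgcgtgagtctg
Cyp51: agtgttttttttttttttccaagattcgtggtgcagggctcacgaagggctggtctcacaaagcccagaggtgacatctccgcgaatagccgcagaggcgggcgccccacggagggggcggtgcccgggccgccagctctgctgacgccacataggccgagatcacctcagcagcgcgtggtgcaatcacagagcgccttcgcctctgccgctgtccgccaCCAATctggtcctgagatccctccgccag
Msmo1: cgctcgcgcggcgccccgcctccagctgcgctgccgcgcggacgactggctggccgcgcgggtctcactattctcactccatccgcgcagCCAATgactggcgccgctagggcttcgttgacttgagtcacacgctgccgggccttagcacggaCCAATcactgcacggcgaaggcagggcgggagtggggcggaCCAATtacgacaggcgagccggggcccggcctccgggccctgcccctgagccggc
Srebf2: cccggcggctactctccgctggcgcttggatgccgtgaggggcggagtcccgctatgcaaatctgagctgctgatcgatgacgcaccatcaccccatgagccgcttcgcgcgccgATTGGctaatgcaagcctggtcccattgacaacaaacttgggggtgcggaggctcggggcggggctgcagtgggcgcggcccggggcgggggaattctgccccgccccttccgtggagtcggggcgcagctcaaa

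Total counts ran from 30996200 to 70437713 per mRNA library and from 2697092 to 8863472 per footprint library, and the 31 genes took 0.109% to 0.215% of mRNA counts and 0.0683% to 0.114% of footprint counts. In mRNA, 4 mice stood apart with few genes detected: BCAA-free vehicle replicates 1, 2 and 5 and BCAA-free 5+3 replicate 7, with 20195 to 22264 genes against 23619 to 34675 in the other 17. Their footprint libraries did not, at 23561 to 27482 against 23364 to 27575 genes. All 5 AA vehicle mice carry the letter B in their sample descriptions and the other mice do not; its meaning is not given, and it cannot be told apart from the group. Of the 31 genes, 9 have a span that overlaps another annotated gene. For Fdft1, Tm7sf2 and Npc1 that gene is protein-coding (Ctsb, Vps51 and Rmc1), and for the others it is not. Strand and exons were not compared, so whether reads are shared cannot be told here. The 8 markers of the leukaemia programme summed to 674 to 1126 CPM of footprints (CPM are counts scaled to a fixed library total). Most of that sum came from Ptprc, Itgam, Myb and Cd44. Hoxa9, Hoxa10 and Meis1 were present in every mouse at lower levels, and Mecom was at most 0.674 CPM. Median Itgam was 264 CPM in AA vehicle and 91.7 in BCAA-free 5+3 mice. Markers of other marrow cell types were read too, and whether their reads came from the leukaemia cells or from other cells cannot be told here. Among them none was at 0 in every library, but many were too low to test in footprints. Those tested were 1 of 5 B cell and 1 of 5 T and NK cell markers. Of endothelium, stroma and bone, and megakaryocyte markers they were 1 of 4, 2 of 5 and 1 of 4. Summed footprints of 12 monocyte and macrophage markers were 465 to 801 CPM in AA vehicle, 262 to 349.8 in AA 5+3, 334 to 429 in BCAA-free vehicle and 184 to 342 in BCAA-free 5+3. Those of 8 mature neutrophil markers were 857 to 1174, 626 to 1933, 725 to 1214 and 91.6 to 1026 in the same order, and those of 7 red cell markers 32.4 to 146, 93.8 to 151, 112 to 214 and 7.36 to 25.8.

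In footprints, the change of sterol synthesis genes with chemotherapy differed between the 2 diets. On the AA diet, footprints of 10 synthesis enzymes rose with 5+3, among them Lss, Fdps, Idi1 and Mvd (3.49% of all genes tested rose). Of these 10, Idi1, Sqle, Lss, Cyp51 and Ebp were not called on the BCAA-free diet. There none rose, and 6 synthesis enzymes, Npc1, Npc2 and Stard4 fell (11.9% of all genes tested fell). None of these falls was called without the 4 mice that stood apart in mRNA. Under 5+3, footprints of 17 members were lower on the BCAA-free than on the AA diet and none was higher, from Mvd at 4.84-fold lower to Ebp at 1.35-fold lower. Of all genes tested, 15.8% were called lower and 12.5% higher there.

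Levels are CPM scaled by TMM, and every adjusted p-value is from edgeR's quasi-likelihood test with Benjamini-Hochberg adjustment over all genes tested, with calls at adjusted p under 0.05. A log2 change (± SE) is 5+3 over vehicle or BCAA-free over AA. Of the 30 members tested in footprints (Insig2 was too low), 10 rose and 1 fell with 5+3 on the AA diet, where 3.49% of all 15723 genes tested were called higher and 3.12% lower. On the BCAA-free diet 0 rose and 9 fell, where 8.76% of genes were called higher and 11.9% lower. Between diets under 5+3, 0 were higher and 17 lower on the BCAA-free diet, against 12.5% higher and 15.8% lower of all genes. The interaction, which tests whether the change with 5+3 differed between diets, was called for 13 members, all with the lower change on the BCAA-free diet, against 3.8% of genes called in that direction and 3.29% in the other. Between diets without chemotherapy, edgeR called 0 members in either direction (0.642% of genes were called higher and 1.4% lower). There 6 members had an unadjusted p under 0.05, DESeq2 called 1 and limma-voom called 0. These comparisons share mice: the AA 5+3 mice enter the first, the third and the interaction.

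Members of synthesis had a median log2 footprint change of 0.59 with 5+3 on the AA diet (18 of 20 above 0), -0.27 on the BCAA-free diet (1 of 20 above 0) and -0.77 between diets under 5+3 (1 of 20 above 0). The medians over all genes tested were -0.019, -0.022 and 0.0049. Without AA 5+3 replicate 1, 6 members rose on the AA diet in place of 10 and Npc1 was not called. Without the 4 mice that stood apart in mRNA, which leaves 2 BCAA-free vehicle mice, the BCAA-free diet gave 0 calls with edgeR (10 members at an unadjusted p under 0.05), the interaction 5 and the diet comparison under 5+3 18. In these sorted bulk samples, fewer cells of a type and less RNA per cell cannot be told apart. Monocyte and macrophage markers moved with chemotherapy in the same libraries, 6 of 10 tested falling in footprints on the AA diet and 5 of 10 on the BCAA-free diet. On the BCAA-free diet 7 of 8 neutrophil and 5 of 5 tested red cell markers fell too. Between diets under 5+3, where 17 members were lower, 5 of 5 red cell markers (median log2 -2.73), 4 of 8 neutrophil markers and 2 of 10 monocyte and macrophage markers were lower on the BCAA-free diet, and 1 of the last was higher. Of 7 leukaemia programme markers tested, 2 were lower there and 0 higher. In the interaction 5 of 5 red cell markers (median -3.84) and 1 of 8 neutrophil markers were called lower. Their part in the sterol gene results was not tested.

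**Figure D1:**
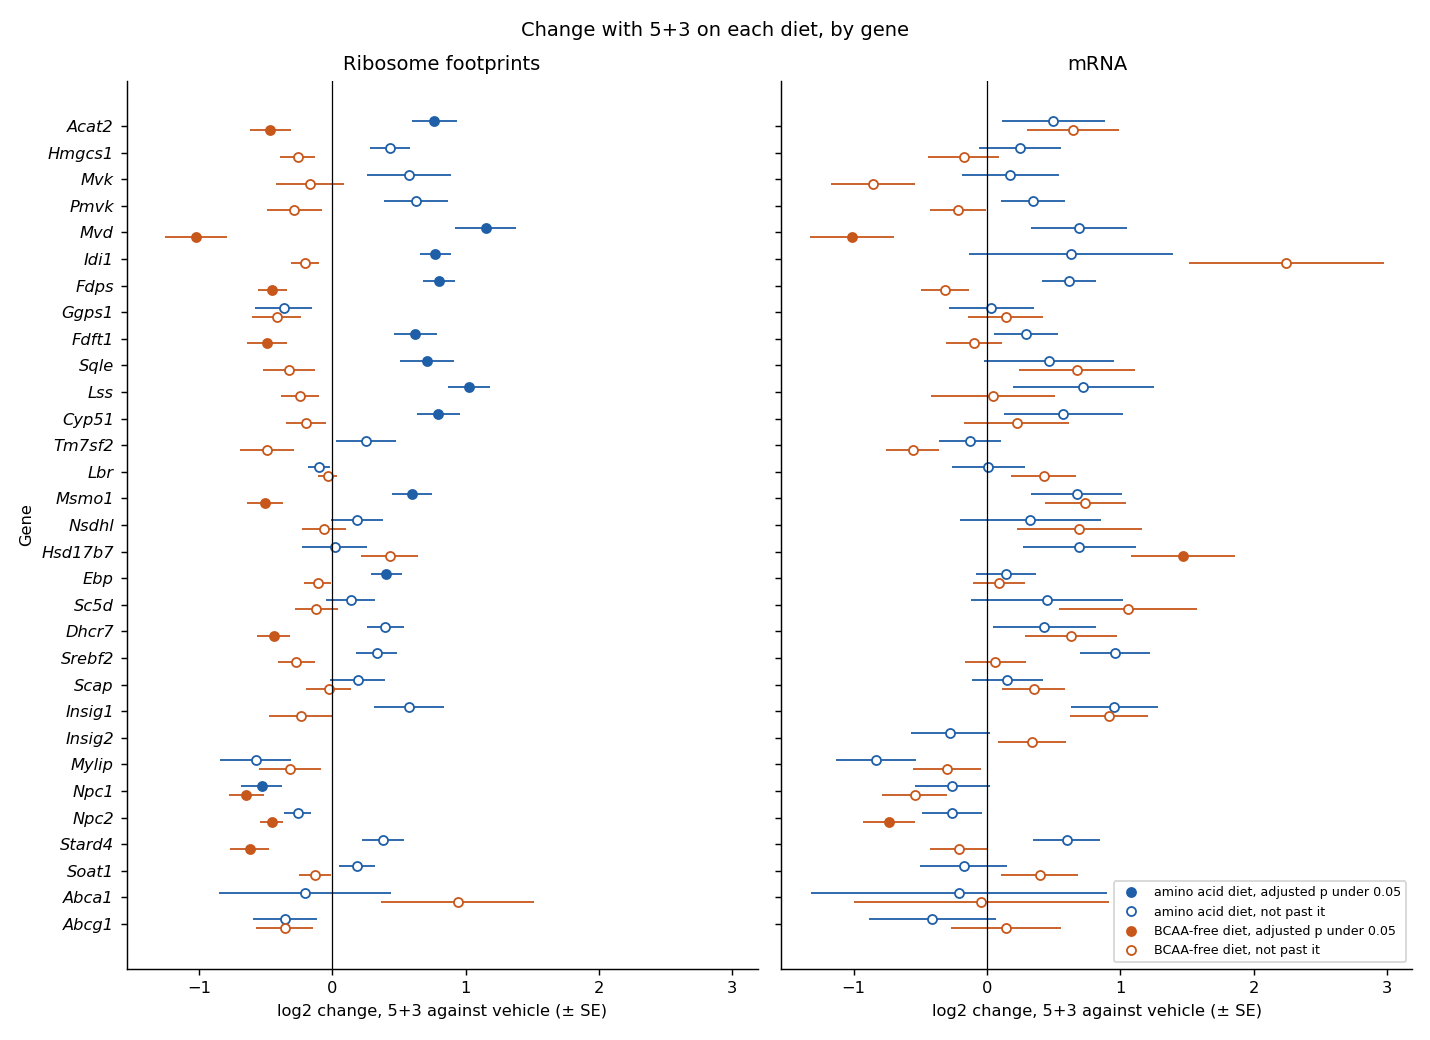
The log2 change with 5+3 against vehicle is plotted for each gene on the AA and the BCAA-free diet, footprints on the left and mRNA on the right, with whiskers for the SE and filled points for an adjusted p under 0.05. In footprints the filled AA-diet points of synthesis enzymes lie to the right of 0, up to 1.15 for Mvd, and all filled BCAA-free points lie to the left.

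The mevalonate arm runs from acetyl-CoA to farnesyl diphosphate. Acat2 (ENSMUSG00000023832, chr17:12943042-12960725, GRCm38.p6 as are all positions here), which joins acetyl-CoA units in the cytosol, had footprints of 13.8, 15.7, 9.68, 11.9 and 16.5 CPM in the AA vehicle mice and of 23.6, 25.7, 22.9 and 19.1 in the AA 5+3 mice. Acat2 footprints in the BCAA-free vehicle mice were 12.2, 15.0, 14.7, 19.3 and 17.6 CPM, and those of the 7 BCAA-free 5+3 mice lay between 7.92 and 14.0 with a median of 11.1. All 4 AA 5+3 mice were above every other AA mouse, while the BCAA-free groups overlapped. Its log2 change was 0.77 ± 0.17 on the AA diet (adjusted p = 0.00793) and -0.46 ± 0.15 on the BCAA-free diet (adjusted p = 0.0312). The latter call was lost in 4 of 12 fits leaving out 1 mouse. Reads of Acat2 may be shared with the near-identical Acat3, which had 27 to 100 footprint counts per library beside 34 to 126 for Acat2, so its values are uncertain.

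Hmgcs1 (ENSMUSG00000093930, chr13:119690351-119708260) makes HMG-CoA, the substrate of the step that commits carbon to mevalonate. Hmgcs1 footprints were 23.3, 22.8, 20.9, 19.0 and 24.4 CPM in AA vehicle mice and 30.9, 26.2, 34.3 and 27.8 in AA 5+3 mice. They were 22.6, 23.4, 29.8, 17.8 and 23.5 CPM in BCAA-free vehicle mice and between 14.7 and 25.8 with a median of 18.7 in BCAA-free 5+3 mice. Neither change with 5+3 was called, at 0.43 ± 0.15 on the AA diet (adjusted p = 0.0820) and -0.26 ± 0.13 on the BCAA-free diet (adjusted p = 0.169). Between diets under 5+3 it was lower, at -0.59 ± 0.14 (adjusted p = 0.00259) with no overlap of the mice. Its interaction of -0.69 ± 0.20 (adjusted p = 0.0365) lost its call in 10 of 21 fits that left out 1 mouse.

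Mvd (ENSMUSG00000006517, chr8:122433596-122443422), the decarboxylase that yields isopentenyl diphosphate, had the largest log2 values of the set in the 4 footprint comparisons that involve 5+3. Its footprints were 3.55, 4.49, 3.42, 4.26 and 4.03 CPM in AA vehicle mice and 10.9, 8.07, 9.80 and 6.68 in AA 5+3 mice. On the BCAA-free diet Mvd stood at 3.26, 3.86, 2.53, 4.77 and 4.33 CPM with vehicle and between 0.951 and 2.47 with a median of 1.95 with 5+3. Every AA 5+3 mouse was above, and every BCAA-free 5+3 mouse below, all vehicle mice of its diet. Mvd footprints rose by 1.15 ± 0.23 on the AA diet (adjusted p = 0.00316) and changed by -1.02 ± 0.23 on the BCAA-free diet (adjusted p = 0.00356). Under 5+3 the log2 difference between diets was -2.27 ± 0.22 (adjusted p = 8.75e-08) and the interaction -2.17 ± 0.33 (adjusted p = 0.000551). Without the 4 mice that stood apart the change on the BCAA-free diet was -0.96 ± 0.33, about as large but not called (adjusted p = 0.105), and the interaction was still called.

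Idi1 (ENSMUSG00000058258, chr13:8885606-8892396) converts isopentenyl diphosphate to its isomer, and Fdps (ENSMUSG00000059743, chr3:89093588-89101967) joins the isomers to farnesyl diphosphate. Idi1 footprints were 27.2, 28.1, 26.2, 27.5 and 27.7 CPM in AA vehicle mice and 51.7, 49.9, 43.8 and 41.3 in AA 5+3 mice. They were 24.2, 27.5, 30.6, 31.6 and 35.1 CPM in BCAA-free vehicle mice and between 20.0 and 29.6 with a median of 26.9 in BCAA-free 5+3 mice. The AA 5+3 mice were above all 17 others, with a log2 change of 0.77 ± 0.12 (adjusted p = 0.000321), and the BCAA-free change of -0.20 ± 0.10 was not called (adjusted p = 0.158). The interaction was -0.98 ± 0.15 (adjusted p = 0.000975). Fdps footprints were 94.7, 128, 82.4, 102 and 95.0 CPM in AA vehicle mice and 208, 202, 141 and 147 in AA 5+3 mice. Fdps stood at 81.8, 74.3, 80.6, 76.1 and 94.9 CPM in BCAA-free vehicle mice and between 55.4 and 67.0 with a median of 60.2 in BCAA-free 5+3 mice. Neither pair of vehicle and 5+3 groups overlapped. Fdps changed by 0.80 ± 0.12 on the AA diet (adjusted p = 0.000321) and by -0.45 ± 0.11 on the BCAA-free diet (adjusted p = 0.00494), and its difference between diets under 5+3 of -1.55 ± 0.11 had the smallest adjusted p of the set, 1.18e-09.

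The kinases Mvk and Pmvk, which phosphorylate mevalonate in turn, were not called in any footprint comparison. Their log2 changes on the AA diet were 0.58 ± 0.32 (adjusted p = 0.293) and 0.63 ± 0.24 (adjusted p = 0.115), and between diets under 5+3 -0.18 ± 0.28 and -0.53 ± 0.22. Ggps1, which draws farnesyl diphosphate off the sterol route to geranylgeranyl diphosphate, had AA-diet and BCAA-free changes of -0.36 ± 0.22 and -0.42 ± 0.18, neither called, and an interaction of -0.051 ± 0.28 (adjusted p = 0.942).

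**Figure D2:**
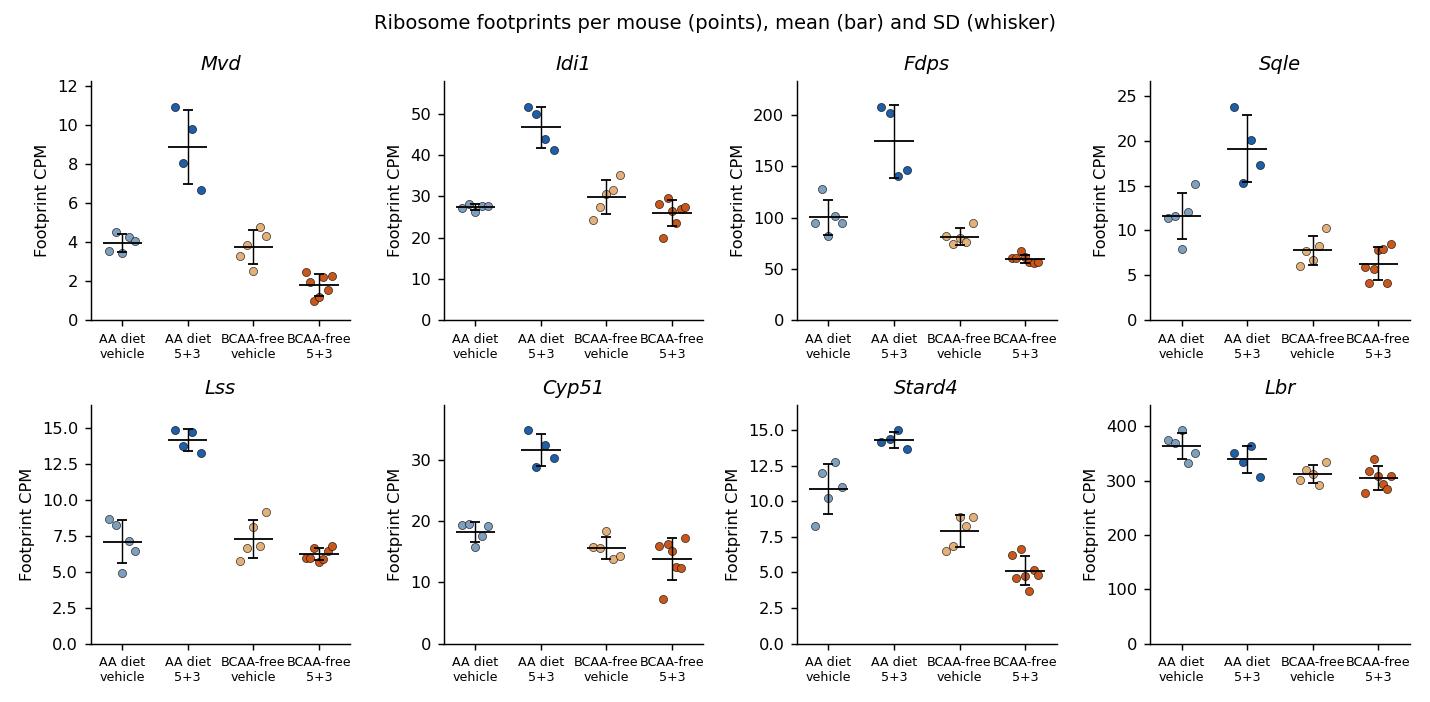
Footprint CPM of 8 genes is plotted per mouse in the 4 groups, with the mean as a bar and the SD as a whisker. For Mvd, Idi1, Fdps and Lss the 4 AA 5+3 mice lie above all other mice, while the Lbr values of all groups overlap.

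The squalene steps moved as a block: all 3 enzymes rose with 5+3 on the AA diet and all 3 were lower on the BCAA-free diet under 5+3. Fdft1 (ENSMUSG00000021273, chr14:63145150-63181687), squalene synthase, had footprints of 11.0, 14.2, 12.5, 12.3 and 11.0 CPM in AA vehicle mice and 20.6, 16.1, 19.6 and 18.8 in AA 5+3 mice. It had 8.16, 11.8, 9.39, 11.8 and 13.2 CPM in BCAA-free vehicle mice and between 4.72 and 9.63 with a median of 8.02 in BCAA-free 5+3 mice. The AA groups did not overlap and the BCAA-free groups did. Its log2 changes were 0.62 ± 0.16 (adjusted p = 0.0206) and -0.49 ± 0.15 (adjusted p = 0.0231), and the interaction was -1.11 ± 0.22 (adjusted p = 0.00469). Leaving out 1 mouse, the Fdft1 call was lost in 3 of 9 fits on the AA diet and in 5 of 12 on the BCAA-free diet. Without the 4 mice that stood apart, its interaction was not called (adjusted p = 0.0501).

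Sqle (ENSMUSG00000022351, chr15:59315092-59331193), squalene epoxidase, puts the first oxygen into the sterol skeleton and is often a slow step of the route. Sqle footprints were 11.4, 11.6, 7.97, 12.0 and 15.2 CPM in AA vehicle mice and 23.8, 15.3, 20.1 and 17.3 in AA 5+3 mice. They were 5.98, 7.73, 6.75, 8.28 and 10.3 CPM in BCAA-free vehicle mice and between 4.13 and 8.49 with a median of 5.95 in BCAA-free 5+3 mice. The AA groups did not overlap, at 0.71 ± 0.20 (adjusted p = 0.0334), though that call was lost in 5 of 9 fits that left out 1 mouse. The difference between diets under 5+3 was -1.62 ± 0.19 (adjusted p = 2.28e-06). The BCAA-free change with 5+3 of -0.32 ± 0.20 was not called (adjusted p = 0.249), nor was the diet difference with vehicle of -0.59 ± 0.21 (adjusted p = 0.124).

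Lss (ENSMUSG00000033105, chr10:76531565-76557139) folds squalene epoxide into lanosterol, the first sterol. Lss footprints were 8.68, 8.24, 4.94, 7.15 and 6.42 CPM in AA vehicle mice and 14.8, 13.7, 14.7 and 13.2 in AA 5+3 mice. With BCAA-free food they were 5.71, 6.66, 8.07, 6.78 and 9.12 CPM under vehicle and between 5.69 and 6.80 with a median of 5.97 under 5+3. Lss rose by 1.03 ± 0.16 on the AA diet (adjusted p = 0.000321), 2.04-fold, and its change on the BCAA-free diet of -0.24 ± 0.14 was not called (adjusted p = 0.228). The interaction of -1.27 ± 0.21 (adjusted p = 0.00127) was also called without the 4 mice that stood apart.

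Of the 9 enzymes that turn lanosterol into cholesterol, 3 rose with 5+3 on the AA diet, 2 fell on the BCAA-free diet and 5 were lower on the BCAA-free diet under 5+3. Cyp51 (ENSMUSG00000001467, chr5:4080674-4104697), lanosterol demethylase, had footprints of 19.3, 19.5, 15.8, 17.5 and 19.3 CPM in AA vehicle mice and 34.8, 28.8, 32.4 and 30.2 in AA 5+3 mice. Cyp51 stood at 15.8, 15.7, 18.4, 13.8 and 14.4 CPM in BCAA-free vehicle mice and between 7.35 and 17.3 with a median of 15.2 in BCAA-free 5+3 mice. It rose by 0.80 ± 0.16 on the AA diet (adjusted p = 0.00429), changed by -0.20 ± 0.15 on the BCAA-free diet (adjusted p = 0.362) and had an interaction of -0.99 ± 0.22 (adjusted p = 0.00937). Without the 4 mice that stood apart, the Cyp51 interaction was not called (adjusted p = 0.0604). Msmo1 (ENSMUSG00000031604, chr8:64718123-64733578), the monooxygenase that starts removal of the methyl groups, had 10.7, 16.1, 14.0, 13.5 and 18.3 CPM in AA vehicle mice and 25.5, 24.0, 22.6 and 17.0 in AA 5+3 mice. Msmo1 in BCAA-free mice was at 12.2, 17.0, 14.5, 13.8 and 15.7 CPM with vehicle and between 8.27 and 12.3 with a median of 10.3 with 5+3. Vehicle and 5+3 mice overlapped on each diet, with log2 changes of 0.60 ± 0.15 (adjusted p = 0.0157) and -0.50 ± 0.13 (adjusted p = 0.0105).

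Ebp, a sterol isomerase, had mean footprints of 28.6 ± 3.21 CPM (SD, n = 5) in AA vehicle and 37.9 ± 4.19 (SD, n = 4) in AA 5+3, a change of 0.41 ± 0.12 (adjusted p = 0.0372) that lost its call in 7 of 9 fits leaving out 1 mouse. The Ebp interaction of -0.52 ± 0.16 (adjusted p = 0.0439) lost its call in 14 of 21 such fits. Dhcr7, a reductase of the last step, was not called on the AA diet at 0.40 ± 0.14 (adjusted p = 0.0785). Its footprints fell from 27.3 ± 3.20 CPM (SD, n = 5) to 20.3 ± 2.77 (SD, n = 7) on the BCAA-free diet, at -0.44 ± 0.12 (adjusted p = 0.0123), and its interaction was -0.84 ± 0.18 (adjusted p = 0.00835). The Dhcr7 interaction was not called without the 4 mice that stood apart (adjusted p = 0.0604). The sterol reductase Tm7sf2 was called only between diets under 5+3, at -0.76 ± 0.21 (adjusted p = 0.00870). Lbr, which carries out the same reaction, also anchors chromatin at the nuclear envelope. It was not called in any of the 5 footprint comparisons, with log2 values from -0.22 to 0.068. Nor were Nsdhl, Hsd17b7 and Sc5d, which act in methyl removal and desaturation: their changes on the AA diet were 0.19, 0.018 and 0.14, and between diets under 5+3 -0.19, 0.12 and -0.40.

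Among the regulators, Srebf2 and Insig1 were lower on the BCAA-free diet under 5+3 and Scap was not called. Srebf2 (ENSMUSG00000022463, chr15:82147269-82205379) had footprints of 25.6, 42.7, 22.2, 28.9 and 28.8 CPM in AA vehicle mice and 41.4, 39.9, 33.8 and 32.9 in AA 5+3 mice. Srebf2 had 25.6, 20.8, 25.3, 21.3 and 29.6 CPM in BCAA-free vehicle mice and between 15.0 and 23.1 with a median of 21.6 in BCAA-free 5+3 mice. The AA 5+3 mice and the BCAA-free 5+3 mice did not overlap, at -0.86 ± 0.14 (adjusted p = 9.62e-05), while the changes with 5+3 of 0.33 ± 0.15 (adjusted p = 0.194) and -0.27 ± 0.14 (adjusted p = 0.167) were not called. Insig1 (ENSMUSG00000045294, chr5:28071412-28078662), itself a target of the sterol response, had 5.52, 8.99, 4.18, 5.78 and 4.77 CPM in AA vehicle mice and 9.44, 6.76, 9.26 and 8.35 in AA 5+3 mice. In BCAA-free mice Insig1 was at 5.98, 4.94, 6.75, 3.51 and 7.30 CPM with vehicle and between 2.53 and 8.49 with a median of 4.74 with 5+3. Its difference between diets under 5+3 was -0.78 ± 0.24 (adjusted p = 0.0166), with overlapping mice. Scap differed by 0.082 ± 0.19 (adjusted p = 0.786) in the same comparison.

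Genes of uptake and movement split. Stard4 (ENSMUSG00000024378), a sterol carrier of the cytosol and a target of the sterol response, moved with the synthesis enzymes between diets. Stard4 footprints were 8.28, 12.0, 10.3, 12.8 and 11.0 CPM in AA vehicle mice and 14.2, 14.4, 15.0 and 13.7 in AA 5+3 mice. They were 6.53, 6.87, 8.91, 8.28 and 8.89 CPM in BCAA-free vehicle mice and between 3.71 and 6.66 with a median of 4.81 in BCAA-free 5+3 mice. All 7 BCAA-free 5+3 mice were below every AA 5+3 mouse, at -1.46 ± 0.15 (adjusted p = 2.39e-07). Stard4 fell by 0.62 ± 0.15 on the log2 scale with 5+3 on the BCAA-free diet (adjusted p = 0.00499) and its AA-diet change of 0.38 ± 0.16 was not called (adjusted p = 0.145).

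Npc1 (ENSMUSG00000024413) and Npc2 (ENSMUSG00000021242, chr12:84754559-84773112), carry cholesterol out of lysosomes, and Npc1 fell on both diets. Npc1 footprints were 25.2, 22.5, 26.0, 19.3 and 29.9 CPM in AA vehicle mice and 18.2, 15.0, 19.1 and 16.1 in AA 5+3 mice. In BCAA-free mice Npc1 stood at 19.3, 24.9, 23.2, 21.8 and 19.8 CPM with vehicle and between 10.4 and 17.7 with a median of 14.2 with 5+3. Vehicle and 5+3 mice did not overlap on either diet, and Npc1 changed by -0.53 ± 0.15 (adjusted p = 0.0390, lost in 7 of 9 fits leaving out 1 mouse) and -0.64 ± 0.13 (adjusted p = 0.00169), with an interaction of -0.12 ± 0.20 (adjusted p = 0.781). Npc2 footprints were 76.9, 74.2, 79.7, 71.3 and 77.7 CPM in AA vehicle mice and 59.4, 70.2, 57.7 and 66.2 in AA 5+3 mice. Npc2 in BCAA-free mice was at 85.9, 74.7, 67.8, 68.0 and 73.4 CPM with vehicle and between 45.1 and 61.6 with a median of 54.4 with 5+3. It fell with 5+3 on the BCAA-free diet without overlap, at -0.45 ± 0.087 (adjusted p = 0.000972), and was not called on the AA diet at -0.26 ± 0.10 (adjusted p = 0.124). Monocyte and macrophage markers fell in the same comparisons as given above, and their part in the Npc1 and Npc2 values was not tested. Mylip was not called in any of the 5 footprint comparisons, with -0.57 ± 0.27 on the AA diet (adjusted p = 0.203). Soat1, which esterifies cholesterol for storage, was at 69.8 ± 11.5 CPM (SD, n = 4) in AA 5+3 and 46.2 ± 7.08 (SD, n = 7) in BCAA-free 5+3 mice, a log2 difference of -0.59 ± 0.12 (adjusted p = 0.00111), and was not called with 5+3 on either diet.

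The exporters were not called in any comparison. Abca1 (ENSMUSG00000015243, chr4:53030789-53159988), which loads cholesterol onto apolipoproteins, was among the lowest counted members, with footprints of 3.55, 2.62, 1.33, 0.304 and 0.917 CPM in AA vehicle mice and 1.72, 0.436, 1.63 and 1.37 in AA 5+3 mice. Abca1 was at 0.544, 0.215, 1.08, 0.753 and 1.37 CPM in BCAA-free vehicle mice and between 0.145 and 3.40 with a median of 1.81 in BCAA-free 5+3 mice. All groups overlapped, and its log2 changes of -0.20 ± 0.64 on the AA diet (adjusted p = 0.897) and 0.94 ± 0.57 on the BCAA-free diet (adjusted p = 0.249) were not called. Abcg1 (ENSMUSG00000024030, chr17:31057694-31117984), which passes cholesterol to lipoprotein particles, had 24.9, 19.1, 19.4, 18.1 and 17.8 CPM in AA vehicle mice and 17.8, 18.3, 16.9 and 9.11 in AA 5+3 mice. Abcg1 stood at 15.2, 15.2, 14.3, 12.5 and 13.5 CPM in BCAA-free vehicle mice and between 5.51 and 15.9 with a median of 11.8 in BCAA-free 5+3 mice. The AA vehicle mice lay above every BCAA-free mouse and overlapped the AA 5+3 mice. With vehicle the diet difference was -0.47 ± 0.23 (adjusted p = 0.285). Its changes with 5+3 were -0.35 ± 0.24 on the AA diet (adjusted p = 0.414) and -0.36 ± 0.21 on the BCAA-free diet (adjusted p = 0.245), with an interaction of -0.0014 ± 0.28 (adjusted p = 0.998).

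Set side by side per mouse in footprints, the synthesis median put the AA 5+3 mice apart from all others and the single exporters did not. The median log2 ratio of the 20 synthesis enzymes to the AA vehicle mean, taken on CPM plus 1, ran in footprints from -0.15 to 0.11 in AA vehicle, 0.39 to 0.63 in AA 5+3, -0.18 to 0.095 in BCAA-free vehicle and -0.44 to -0.12 in BCAA-free 5+3 mice. The AA 5+3 mice lay above all others, and the BCAA-free 5+3 mice overlapped the vehicle mice. In mRNA the same medians ran from -0.34 to 0.54, 0.11 to 0.86, -0.43 to -0.20 and -0.43 to 0.39 in that order, so the AA 5+3 mice overlapped those of AA vehicle and of BCAA-free 5+3. Abca1 footprints ran from -1.07 to 0.73, -0.93 to -0.015, -1.18 to -0.21 and -1.26 to 0.68 in the same order. Abcg1 ran from -0.15 to 0.31, -1.04 to -0.11, -0.62 to -0.36 and -1.68 to -0.31. No test was made of the difference between the synthesis median and either exporter. A median over 20 genes varies less than a single gene, and Abca1 is so low that the CPM added weighs on its ratio. The contrast therefore cannot show that synthesis and export differ.

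**Figure D3:**
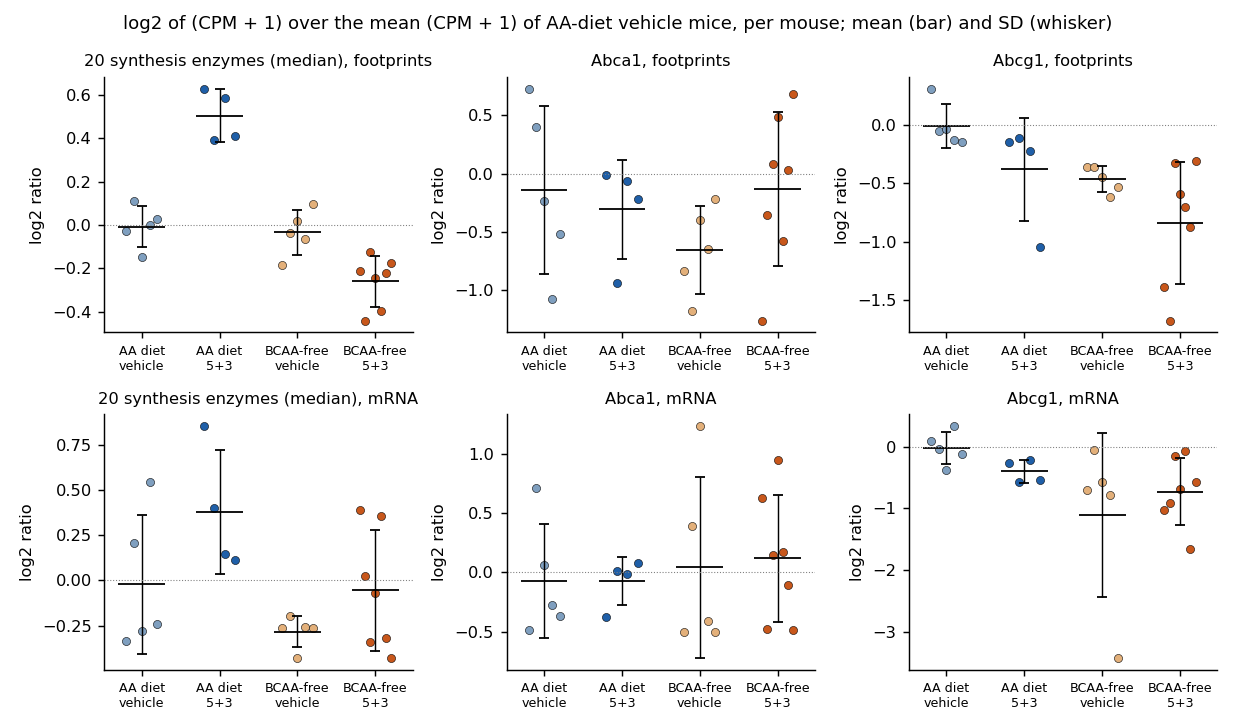
The log2 ratio of CPM plus 1 to the mean of AA vehicle mice is plotted per mouse for the median of 20 synthesis enzymes, Abca1 and Abcg1, footprints above and mRNA below, with the mean as a bar and the SD as a whisker. In footprints the synthesis medians of the 4 AA 5+3 mice, 0.39 to 0.63, lie above those of all other mice, while the AA 5+3 mice overlap the AA vehicle mice for both exporters.

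In mRNA few of the same genes were called. With 5+3 on the AA diet edgeR called 0 of 31 members (0.0189% of all 21114 genes tested were called higher and 0.0426% lower). There 5 members had an unadjusted p under 0.05, and DESeq2 and limma-voom called 0. The synthesis median was 0.44 with 19 of 20 enzymes above 0, beside -0.012 over all genes. On the BCAA-free diet it was above 0 as well, at 0.18 with 13 of 20 enzymes above 0 (-0.0061 over all genes), and the median interaction was 0.0033 with 10 of 20 above 0 (0.042 over all genes). On the BCAA-free diet 1 member rose and 2 fell, against 4.33% of genes higher and 4.23% lower. These counts lie near those shares and are no result about the set. Between diets under 5+3, 0 were higher and 3 lower on the BCAA-free diet, against 0.559% and 0.682%. For vehicle mice edgeR, DESeq2 and limma-voom called 0 members between diets (6 at an unadjusted p under 0.05), and edgeR called 0% of all genes in either direction. The interaction gave 0 calls with edgeR and limma-voom and 2 with DESeq2 (5 members at an unadjusted p under 0.05), against 0.0237% of genes higher and 0.0521% lower.

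The 3 members called between diets under 5+3 in mRNA were also called in footprints. Fdps mRNA was 195, 273, 184, 257 and 158 CPM in AA vehicle mice and 405, 323, 222 and 356 in AA 5+3 mice. Fdps mRNA on the BCAA-free diet was 179, 133, 115, 169.9 and 176 CPM with vehicle and between 109 and 144 with a median of 122 with 5+3. The 5+3 mice of the 2 diets did not overlap, at -1.39 ± 0.19 (adjusted p = 0.000274). Mvd mRNA was 12.5, 24.8, 17.0, 13.6 and 10.8 CPM in AA vehicle mice and 30.8, 25.0, 23.01 and 22.5 in AA 5+3 mice. Mvd mRNA in BCAA-free mice was 15.2, 17.0, 10.5, 6.99 and 33.2 CPM with vehicle and between 3.99 and 10.6 with a median of 8.80 with 5+3. It was lower, at -1.62 ± 0.33 on the BCAA-free diet under 5+3 (adjusted p = 0.0127), again without overlap. Stard4 mRNA was 29.7, 26.4, 25.1, 27.3 and 28.3 CPM in AA vehicle mice and 37.2, 43.3, 45.2 and 39.6 in AA 5+3 mice. Stard4 mRNA in BCAA-free mice was 12.3, 29.9, 23.3, 18.6 and 10.9 CPM with vehicle and between 11.5 and 20.6 with a median of 17.1 with 5+3. It was lower, at -1.33 ± 0.23 (adjusted p = 0.00337), and the 5+3 mice of the diets did not overlap.

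The 3 mRNA calls with 5+3 on the BCAA-free diet all came from overlapping groups. Hsd17b7, a reductase of methyl removal, was 2.23, 4.88, 4.28, 5.52 and 1.10 CPM in BCAA-free vehicle mice and between 5.49 and 14.7 with a median of 7.66 in BCAA-free 5+3 mice. It rose by 1.47 ± 0.39 (adjusted p = 0.0275) and stood at 3.55, 4.78, 4.79, 10.5 and 6.70 CPM in AA vehicle and 12.5, 10.6, 7.39 and 8.68 in AA 5+3 mice. Npc2 mRNA was 443, 393, 293, 390.1 and 547 CPM in BCAA-free vehicle and between 190.1 and 339 with a median of 209.5 in BCAA-free 5+3 mice. It fell by 0.74 ± 0.19 on the log2 scale (adjusted p = 0.0262), and stood at 416, 331, 358, 257 and 312 CPM in AA vehicle and 232, 251, 256 and 376 in AA 5+3 mice. Mvd mRNA changed by -1.01 ± 0.31 (adjusted p = 0.0461). Without the 4 mice that stood apart none of the 3 was called (0 of 31 with edgeR, 5 at an unadjusted p under 0.05) and the Mvd value was 0.087 (adjusted p = 0.910). Fitted on the compared groups alone, edgeR also called 0, with 8 members at an unadjusted p under 0.05, and on all groups DESeq2 called 7.

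Idi1 mRNA was 2.74, 7.08, 4.70, 11.1 and 7.36 CPM in AA vehicle mice and 16.9, 13.0, 7.29 and 3.64 in AA 5+3 mice. Idi1 mRNA in BCAA-free mice was 0.657, 0.668, 2.58, 5.95 and 0 CPM with vehicle and between 3.50 and 13.2 with a median of 11.2 with 5+3. The vehicle mouse at 0 is replicate 5, one of the 4 that stood apart, and the change of 2.24 ± 0.73 was not called (adjusted p = 0.0550). Hmgcs1 mRNA was 22.2, 18.9, 38.2, 26.4 and 25.8 CPM in AA vehicle mice and 31.5, 30.3, 42.7 and 20.2 in AA 5+3 mice. Hmgcs1 mRNA in BCAA-free mice was 13.0, 33.0, 28.8, 19.3 and 33.9 CPM with vehicle and between 15.7 and 37.6 with a median of 20.2 with 5+3. All groups overlapped, and no comparison was called. Sqle mRNA was 18.7, 28.0, 12.4, 38.0 and 14.7 CPM in AA vehicle mice and 40.6, 33.0, 22.8 and 27.3 in AA 5+3 mice. Sqle mRNA in BCAA-free mice was 14.5, 7.24, 14.9, 10.0 and 1.58 CPM with vehicle and between 5.51 and 28.9 with a median of 12.0 with 5+3. The 5+3 mice of the diets overlapped, and the difference between diets under 5+3 was -1.01 ± 0.45 (adjusted p = 0.333).

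Srebf2 mRNA was 37.8, 38.6, 35.2, 53.2 and 43.4 CPM in AA vehicle mice and 87.8, 89.2, 92.6 and 54.3 in AA 5+3 mice. Srebf2 mRNA in BCAA-free mice was 36.3, 48.2, 47.8, 56.1 and 42.5 CPM with vehicle and between 30.7 and 72.1 with a median of 37.3 with 5+3. The 4 AA 5+3 mice were above every AA vehicle mouse, but the change of 0.96 ± 0.26 was not called (adjusted p = 0.322). Insig1 mRNA was 14.5, 12.2, 10.7, 27.0 and 16.1 CPM in AA vehicle mice and 38.6, 44.9, 23.2 and 18.2 in AA 5+3 mice. Insig1 mRNA in BCAA-free mice was 15.3, 13.1, 18.0, 18.2 and 12.8 CPM with vehicle and between 13.9 and 45.1 with a median of 28.7 with 5+3. Its changes were 0.95 ± 0.32 (adjusted p = 0.508) and 0.92 ± 0.29 (adjusted p = 0.0513), neither called. Insig2, the second anchor protein, was tested in mRNA only and was not called in any of the 5 comparisons, with -0.28 ± 0.29 on the AA diet and 0.34 ± 0.26 on the BCAA-free diet.

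Abca1 mRNA was 0.0679, 1.44, 0.557, 0.236 and 0.157 CPM in AA vehicle mice and 0.153, 0.507, 0.477 and 0.576 in AA 5+3 mice. Abca1 mRNA in BCAA-free mice was 0.0526, 0.960, 2.51, 0.126 and 0.0525 CPM with vehicle and between 0.0644 and 1.88 with a median of 0.653 with 5+3. Each group overlapped the others. Abcg1 mRNA was 19.9, 18.0, 14.1, 23.7 and 17.1 CPM in AA vehicle mice and 15.4, 12.2, 15.9 and 12.4 in AA 5+3 mice. Abcg1 mRNA in BCAA-free mice was 11.1, 17.9, 12.1, 10.3 and 0.814 CPM with vehicle and between 5.20 and 17.7 with a median of 11.1 with 5+3. The log2 changes with 5+3 on the AA diet were -0.21 ± 1.11 and -0.41 ± 0.47, and on the BCAA-free diet -0.045 ± 0.96 and 0.14 ± 0.41, none of them called.

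**Figure D4:**
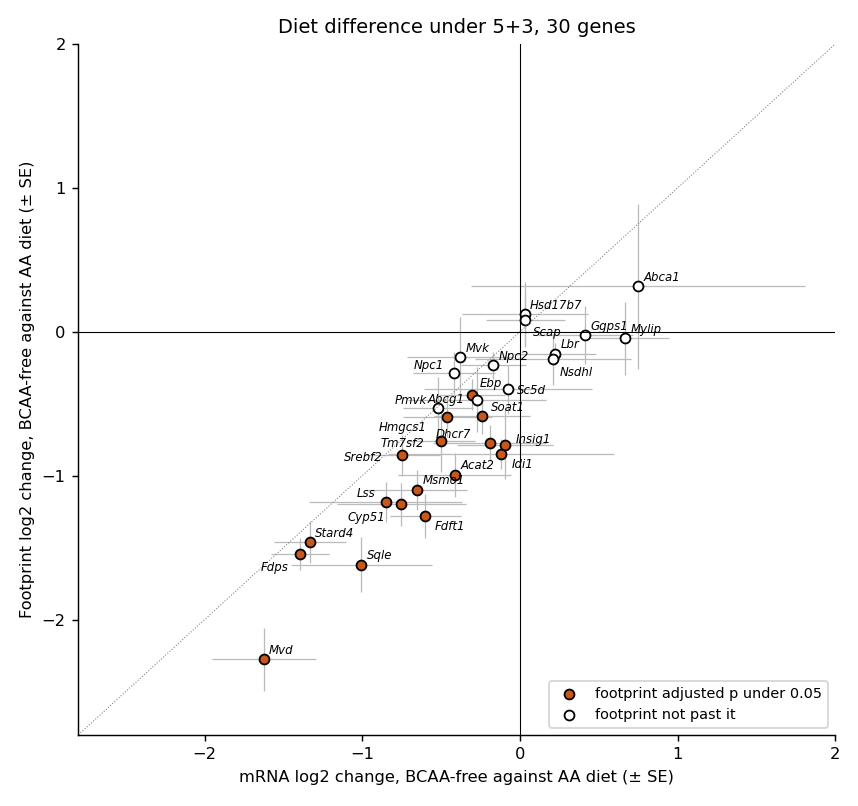
The log2 difference between diets under 5+3, BCAA-free against AA, is plotted for 30 genes with mRNA on the x axis and footprints on the y axis, whiskers giving the SE. Filled points passed an adjusted p under 0.05 in footprints. Mvd lies lowest on both axes, at -2.27 in footprints and -1.62 in mRNA, and Fdps and Stard4 come next in mRNA at -1.39 and -1.33.

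Translational efficiency, the change in footprints beyond the change in mRNA, was tested with the mouse as a block in 30 members and 12097 genes. With 5+3 on the BCAA-free diet it was lower for Idi1 at -3.13 ± 0.74 (adjusted p = 0.0237), Msmo1 at -1.24 ± 0.31 (adjusted p = 0.0262) and Acat2 at -1.12 ± 0.35 (adjusted p = 0.0438), where 10.3% of genes were called in either direction and the median over all genes was -0.24. Taken against that median, the values were -2.89, -1.002 and -0.89. The 3 calls among 30 members lie near the 10.3% of all genes and are no result about the set. Leaving out 1 mouse, the call was lost in 4 of 12 fits for Idi1, 6 of 12 for Msmo1 and 8 of 12 for Acat2. Idi1 mRNA was low in BCAA-free vehicle mice and Acat2 reads may be shared with Acat3, as given above. Without the 4 mice that stood apart 0 members were called (edgeR, 7 at an unadjusted p under 0.05). In the other 4 comparisons edgeR and limma called 0 members: with 5+3 on the AA diet (0 members at an unadjusted p under 0.05, and 0% of genes called), between diets with vehicle (1 member, 0%), between diets under 5+3 (2 members, 0.0165%) and for the interaction (3 members, 0.00827%). For Mvd, Fdps and Stard4, lower in both kinds of library between diets under 5+3, the efficiency differences were -0.68 ± 0.39, -0.16 ± 0.19 and -0.15 ± 0.28, beside a median of -0.12 over all genes.

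Other genes around the pathway were read from lists of processing factors, LXR partners, receptors, ester and oxysterol enzymes, transfer proteins, isoprenoid users and electron donors. In footprints between diets under 5+3, 2 of 15 genes of sterol response processing were higher and 4 lower on the BCAA-free diet. Over all genes tested 12.5% were higher and 15.8% lower there. For lists this short, the processing counts here lie near those shares. The same holds for the receptor, isoprenoid, ester and electron donor counts further on. These counts are no result about those lists. Nfya, the NF-Y subunit that reads CCAAT boxes, was lower, at -0.82 ± 0.12 (adjusted p = 3.08e-05), and Sec24d, a coat protein of vesicles that leave for the Golgi, was lower at -1.38 ± 0.26 (adjusted p = 0.000836). Sec24d rose with 5+3 on the AA diet by 1.20 ± 0.29 (adjusted p = 0.0175), the 1 gene of its list called there. Srebf1, the related factor of fatty acid synthesis, was lower, at -0.46 ± 0.13 (adjusted p = 0.0100), and Sec24a was higher by 0.38 ± 0.12 (adjusted p = 0.0200). Of 9 LXR genes tested, 0 were higher and 4 lower, among them the receptor Nr1h2 at -0.75 ± 0.14 (adjusted p = 0.000270), the corepressor Ncor1 at -0.54 ± 0.10 (adjusted p = 0.000300) and the phospholipid enzyme Lpcat3 at -0.61 ± 0.13 (adjusted p = 0.00107). Smpdl3a, an LXR target, was lower, at -0.56 ± 0.12 (adjusted p = 0.000974) and fell with 5+3 on both diets, at -0.75 ± 0.13 on the AA diet and -0.90 ± 0.11 on the BCAA-free diet.

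Of 9 receptor and lysosomal genes, Scarb1, which takes cholesterol esters from lipoproteins, was lower, at -0.70 ± 0.14 (adjusted p = 0.000840) on the BCAA-free diet under 5+3 and Scarb2 higher by 0.66 ± 0.13 (adjusted p = 0.000816). Scarb1 footprints rose with 5+3 on the AA diet by 0.80 ± 0.16 (adjusted p = 0.00341), with an interaction of -0.87 ± 0.21 (adjusted p = 0.0154). Of 10 transfer proteins 0 were higher and 6 lower, including Osbpl8 at -0.59 ± 0.11, Vps13a at -0.46 ± 0.12, Gramd1a at -0.55 ± 0.15 and Osbpl9 at -0.37 ± 0.11. Of 14 isoprenoid users 0 were higher and 2 lower, Dhdds of dolichol synthesis at -0.81 ± 0.12 and the prenyltransferase subunit Rabggtb at -0.76 ± 0.20. Of 4 ester and oxysterol genes 1, the lipase Lipe, was lower, at -0.70 ± 0.17. Among 5 electron donors and helpers only Pgrmc1, a haem protein that binds Cyp51, was called. Pgrmc1 was higher by 1.63 ± 0.20 in footprints (adjusted p = 3.61e-06) and by 1.74 ± 0.21 in mRNA (adjusted p = 0.000100), opposite in direction to Cyp51 footprints at -1.20 ± 0.15.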

How the data were processed

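Raw gene counts, one whole-number table for mRNA and one for ribosome footprints (55487 Ensembl identifiers, 42 libraries from 21 mice), were used as deposited by the authors. Per the submitters' processing notes, cutadapt, Bowtie2, STAR, SAMtools and featureCounts were used with builds GRCm38 and mm10; no version, annotation or strand setting is given in the sources used here. Counts cover 30996200 to 70437713 reads per mRNA and 2697092 to 8863472 per footprint library, so low genes such as Abca1 carry wide errors. No pair of replicates agreed within sampling noise, so none was counted as 1 library deposited in copies. The spans of Acat2, Mvd, Fdps, Fdft1, Lss, Tm7sf2, Srebf2, Insig1 and Npc1 overlap another gene, and whether reads are shared with it cannot be told here. The labels number biological replicates and each mouse gave 1 library of each kind. Symbols came from a gene name table, which matched 99.4% of identifiers; positions, promoter windows and overlapping genes came from RefSeq tables (GRCm38.p6). Every sample column of both tables was used (0 left out).

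With edgeR 4.0.16 in R 4.3.3, genes passed filterByExpr (minimum count 10, minimum total 15), were scaled by TMM and were fitted with robust quasi-likelihood over all 4 groups per kind of library. Translational efficiency was the interaction of library kind and group over all libraries with mouse as a block. Calls are at a Benjamini-Hochberg adjusted p under 0.05 over all genes tested, and the SE is the log2 change over the square root of F. The fits were tested on simulated data. Alternatives were median-ratio scaling, no filter, DESeq2 1.42.0, limma 3.58.1 (voom), the compared groups alone, protein-coding totals, a replicate block, and leaving out each mouse, 4 mice or the 2 shallowest libraries.

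The members and gene lists were chosen with earlier results of these data known. All 31 genes are named. Values per mouse are given for Idi1, Hmgcs1, Sqle, Insig1, Srebf2, Abca1 and Abcg1 and for up to 6 further called members with the smallest adjusted p in each comparison, and up to 4 called genes are named per context list. The mRNA and footprint libraries of 1 mouse share a lysate, and their deviations correlated at a median of 0.11 over 21 mice.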

Additional observations from a re-analysis of the deposited data

Results flagged for a closer look

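In 4 of the 116 groups of per-mouse values examined, 1 mouse stood apart from the rest by a gap above Dixon's 95% critical value, where chance flags about 1 in 20 groups. Srebf2 mRNA was 54.3 CPM in AA 5+3 replicate 4, with the next mouse at 87.8. Npc2 mRNA was 376 CPM in the same mouse, with the next at 256. Abcg1 footprints were 9.11 CPM in that mouse too, with the next at 16.9. In AA vehicle replicate 1 Abcg1 footprints were 24.9 CPM, with the next mouse at 19.4.

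The footprint change with 5+3 differed between diets, by the interaction term of edgeR, for 13 members. The log2 interaction was -1.23 for Acat2, -0.69 for Hmgcs1, -2.17 for Mvd, -0.98 for Idi1, -1.25 for Fdps, -1.11 for Fdft1, -1.03 for Sqle, -1.27 for Lss, -0.99 for Cyp51, -1.10 for Msmo1, -0.52 for Ebp, -0.84 for Dhcr7 and -0.9985 for Stard4. Each was called at an adjusted p of 0.0439 or less, where 3.8% of all genes tested were called in that direction. The Ebp call was lost in 14 of 21 fits that left out 1 mouse and under 5 of 8 other alternatives, limma-voom among them, that of Hmgcs1 in 10 of 21 such fits and that of Sqle in 4 of 21. Without the 4 mice that stood apart in mRNA, only Acat2, Mvd, Idi1, Fdps and Lss kept the interaction call. In mRNA edgeR called the interaction for 0 members (5 at an unadjusted p under 0.05, and 2 called by DESeq2).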

How the results depend on the processing

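Counts of called members by comparison kept within 1.5 times the count reported under every alternative except those given here. For mRNA with 5+3 on the BCAA-free diet (3 called), DESeq2 called 7, the replicate block 5, the compared groups alone 0, the fit without the 4 mice that stood apart 0, and fits leaving out 1 mouse 0 to 5. For mRNA between diets under 5+3 (3 called) the replicate block gave 1, and for the mRNA interaction and the footprint comparison of diets with vehicle (0 each) DESeq2 gave 2 and 1. For footprints with 5+3 on the AA diet (11 called), leaving out 1 mouse gave 6 to 11, the lowest without AA 5+3 replicate 1. Without the 4 mice, which leaves 2 BCAA-free vehicle mice, footprint calls with 5+3 on the BCAA-free diet went from 9 to 0 (all genes called, from 3242 to 395), interaction calls from 13 to 5, and translational efficiency calls with 5+3 on the BCAA-free diet from 3 to 0, where leaving out 1 mouse gave 0 to 6. The one called value that changed sign was Mvd mRNA with 5+3 on the BCAA-free diet, 0.087 without the 4 mice (adjusted p = 0.910). Why these values moved was not tested, beyond the fewer mice fitted. For single genes, 8793 values under the alternatives kept their side of the threshold, 149 lost the call and 40 gained it. Direction was checked only for values called in the reported fit or in the alternative. All 248 group levels moved by under 1 SD without TMM. The replicate block, over numbers that do not pair the mice (deviations of same-numbered mice correlated at -0.48 to 0.50 in mRNA and -0.25 to 0.41 in footprints), changed no other count by over 1.5 times: footprint calls were 9, 8, 0, 18 and 13 for the AA diet, the BCAA-free diet, vehicle, 5+3 and the interaction. Depth limits Insig2 footprints, which were not tested, and widens the errors of Abca1.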
